A study of Mus musculus with 36 samples.

Results

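Mitochondrial fatty acid oxidation was followed through 10 named genes. They were the carnitine palmitoyltransferases *Cpt1a*, *Cpt1b* and *Cpt2*, the acyl-CoA dehydrogenases *Acadvl*, *Acadl* and *Acadm*, both subunits of the trifunctional protein (*Hadha* and *Hadhb*), the electron carrier *Etfdh* and the acetyl-CoA carboxylase *Acacb*. The rule lists the genes by name and sets no threshold on their values. They are 10 of the 55536 genes listed in every library. All 10 passed the low count filter, which left 16723 genes for testing, although *Cpt1b* did so with very few counts.

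Long-chain fatty acids are activated to acyl-CoA and enter mitochondria as carnitine esters, which CPT1 forms at the outer membrane and CPT2 turns back into acyl-CoA in the matrix. Chain-length-specific acyl-CoA dehydrogenases and the trifunctional protein then shorten the chain in repeated cycles. Electrons from the acyl-CoA dehydrogenases reach ubiquinone through the electron transfer flavoprotein and the dehydrogenase encoded by *Etfdh*. Malonyl-CoA, which the enzyme encoded by *Acacb* makes at the mitochondrial surface, inhibits CPT1, and brown adipocytes are known to burn fatty acids by this route to make heat.

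The libraries were RNA sequencing libraries of mouse brown pre-adipocyte lines. All lines came from 2 *Rxra*-/- clones, numbered 48 and 66, in which Cas9 had disrupted the gene of the nuclear receptor RXRα within a clonal wild-type line. A retrovirus had then supplied wild-type *Rxra* (*Rxra*WT) or *Rxra* with alanine in place of a serine that insulin signalling phosphorylates (*Rxra*SA). The 36 libraries covered 3 replicates of each clone and genotype at confluence (day 0) and on days 2 and 6 of differentiation. Cells of every group were grown in medium with insulin and triiodothyronine, and dexamethasone, isobutylmethylxanthine and indomethacin were present from day 0 to day 2. Each genotype had 6 libraries per day. All groups shared the loss of endogenous *Rxra*, and no parental cells were among the libraries. The vector promoter, and not that of *Rxra*, drove the supplied receptor, and each clone is a single cell line. Clone 48 was sequenced in library pool 1 and clone 66 in pool 2, so clone and pool cannot be told apart. Total counts lay between 11351078 and 24349263 per library with a median of 18338726. *Rxra* itself had a median of 166 CPM at day 0 in the *Rxra*WT lines and of 170 CPM with the alanine form, of 570 and 555 CPM at day 2 and of 236 and 244 CPM at day 6. It was lower in clone 66 at day 0 (log2 difference -0.54, adjusted p = 0.012). Its log2 change was 1.77 to day 2 and -1.15 from day 2 to day 6, and its part in the results was not tested. Counts of a gene cannot show which receptor form a library carried, or whether *Rxra* reads came from the vector or from the disrupted gene. The deposited design text calls the replicates technical while the paper describes independent replicates, so the p-values measure the spread between these libraries, which may be technical.

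The labelled cell type was checked against its markers. Summed levels of 7 adipocyte markers (*Adipoq*, *Fabp4*, *Plin1*, *Pparg*, *Cebpa*, *Lpl* and *Cidec*) were 473 to 1337 CPM at day 0, 6181 to 8290 CPM at day 2 and 9524 to 14942 CPM at day 6. Of 8 brown adipocyte markers, *Ucp1* (2 to 5 counts per library at day 6), *Dio2* (0 to 6) and *Prdm16* (0 to 21) did not pass the low count filter. The mitochondrial proteins of brown fat encoded by *Cox8b* and *Cox7a1* had 453 to 889 and 91 to 441 counts at day 6. Of the 8 brown markers 5 passed the filter, and not all of these are given singly. Summed over the brown list, the median level was 14.2, 26.8 and 76.9 CPM on days 0, 2 and 6. Of 6 skeletal muscle markers, *Myod1*, *Ckm*, *Myh1* and *Myh4* had at most 3 counts in every library, as had *Adgre1*, *Ptprc* and *Itgam* of 5 macrophage markers. The 5 macrophage markers summed to 4.96 to 11.02, 2.77 to 5.85 and 5.35 to 11.5 CPM on days 0, 2 and 6. Summed over the muscle list the level was 1.15 to 4.17, 0.260 to 1.04 and 5.73 to 11.8 CPM on days 0, 2 and 6. The 5 pre-adipocyte markers summed to 255 to 465, 33.7 to 104 and 42 to 168 CPM, with *Dlk1* at most at 1 count. The mitochondrial chromosome took 1.11 to 3.78%, 1.25 to 4.86% and 1.96 to 9.09% of the counts on the same days. The part of these values in the results was not tested.

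In the GRCm38 build, *Cpt1a* (ENSMUSG00000024900.5) lies at chr19:3322334-3385733 on the plus strand, *Cpt1b* (ENSMUSG00000078937.8) at chr15:89416405-89425863 on the minus strand and *Cpt2* (ENSMUSG00000028607.16) at chr4:107903981-107923610 on the minus strand. *Acadvl* (ENSMUSG00000018574.14) lies at chr11:70010183-70015411, *Acadl* (ENSMUSG00000026003.5) at chr1:66830839-66863277 and *Acadm* (ENSMUSG00000062908.12) at chr3:153922357-153944632, all on the minus strand. *Hadha* (ENSMUSG00000025745.12) occupies chr5:30118304-30155162 on the minus strand and *Hadhb* (ENSMUSG00000059447.13) chr5:30155248-30184593 on the plus strand. *Etfdh* (ENSMUSG00000027809.14) is at chr3:79603788-79629500 on the minus strand and *Acacb* (ENSMUSG00000042010.16) at chr5:114146535-114250761 on the plus strand. All are protein-coding, and their values counted read pairs over all exons of the gene.

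Read pairs that fell on more than 1 gene were not counted and the strand was not used, which bears on the members that share exonic sequence with a neighbour. *Cpt1b* shared 2744 of its 3372 exonic bases (81.4%) with *Gm44502*, a gene annotated on the same strand across *Chkb* and *Cpt1b* that itself received 0 or 1 count per library. Only 628 bases of *Cpt1b* were therefore free to be counted, and its values are lower limits of an unknown part of its reads. *Acadvl* shared 1151 of 2686 bases (42.9%) with *Dvl2* on the opposite strand. The overlap was 3.70% for *Etfdh* (with *4930579G24Rik*) and 0.859% for *Hadha* (with *Garem2*), and the other 6 members overlapped no other gene.

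RefSeq windows on GRCm38.p6, from 250 bases before to 50 bases after the start site, were given for 9 members, and *Cpt1b* had none. RXR with its partner receptors is known to bind pairs of AGGTCA-like motifs. The letters AGGTCA, searched on both strands, were in the windows of 4 of the 9 members (44.4%), *Cpt1a*, *Acadvl*, *Acadm* and *Acacb*, and in 16.3% of all 32851 windows. A direct repeat of these letters with 1 base of any kind between, which contains the shorter motif, was in none of the 9 and in 0.0396% of all windows. A match is a run of letters and not a measured binding site. The windows of *Acadm* (chr3:153944594-153944893, minus strand), the member with the largest increase to day 2, and of *Cpt1a* (chr19:3323051-3323350, plus strand), the member that was lower at day 6 than at day 0, are shown 5′ to 3′ with the match in capitals (TGACCT where it lies on the reverse strand). Counted from the RefSeq start, the match began at position -249 in *Acadm* and at -94 in *Cpt1a*. That start differs from the gene span given above for *Cpt1a*, whose window lies wholly inside the span that begins at 3322334.
*Acadm*: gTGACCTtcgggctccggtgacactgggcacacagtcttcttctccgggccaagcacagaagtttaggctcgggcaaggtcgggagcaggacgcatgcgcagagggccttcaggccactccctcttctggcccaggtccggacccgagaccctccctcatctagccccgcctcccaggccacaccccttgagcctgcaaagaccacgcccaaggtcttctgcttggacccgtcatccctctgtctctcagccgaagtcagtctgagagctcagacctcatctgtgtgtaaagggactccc
*Cpt1a*: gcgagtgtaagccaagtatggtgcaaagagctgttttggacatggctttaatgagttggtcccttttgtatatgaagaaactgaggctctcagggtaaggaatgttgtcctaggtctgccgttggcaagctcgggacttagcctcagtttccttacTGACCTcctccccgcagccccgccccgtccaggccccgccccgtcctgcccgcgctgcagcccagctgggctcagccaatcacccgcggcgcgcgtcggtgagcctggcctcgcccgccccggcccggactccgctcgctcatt

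*Hadha* and *Hadhb* are transcribed away from each other, with annotated start sites 86 bases apart in GENCODE M21. The window of *Hadhb* (chr5:30155003-30155302, plus strand) therefore holds the starts of both subunits of the trifunctional protein, and capitals mark the 87 bases from the start of *Hadha* to that of *Hadhb*.
*Hadhb*: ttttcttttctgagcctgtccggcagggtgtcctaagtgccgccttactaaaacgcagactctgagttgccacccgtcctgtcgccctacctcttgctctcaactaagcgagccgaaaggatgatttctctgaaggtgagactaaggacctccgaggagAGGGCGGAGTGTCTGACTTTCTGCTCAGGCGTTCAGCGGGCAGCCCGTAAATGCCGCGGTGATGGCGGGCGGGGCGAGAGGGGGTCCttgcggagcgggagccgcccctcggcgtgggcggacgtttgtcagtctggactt

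Most of the fatty acid oxidation genes rose between days 0 and 2. Adjusted for all genes tested, 8 of the 10 members were higher at day 2 and 0 were lower, against 35.8% of all 16723 genes higher and 37.5% lower. The unadjusted p-value was under 0.05 for the same 8 members, and DESeq2 also called 8. The median log2 change of the members was 1.37 and that of all genes was -0.02. In 7 members every day 2 library was above every day 0 library, against 13.6% of all genes. In bulk RNA, fewer cells of a type and less RNA per cell cannot be told apart, so these are changes in the RNA of whole cultures. Scaled by library size instead of by TMM, the median of all genes shifted by -0.26 on these days, and 33.6% in place of 48.9% of the genes called were higher. The members' changes are given on the TMM scale. Same-numbered libraries of both genotypes varied together, so the libraries of a day are not all independent. The standard errors and p-values of the day comparisons may therefore be too small.

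**Figure D1:**
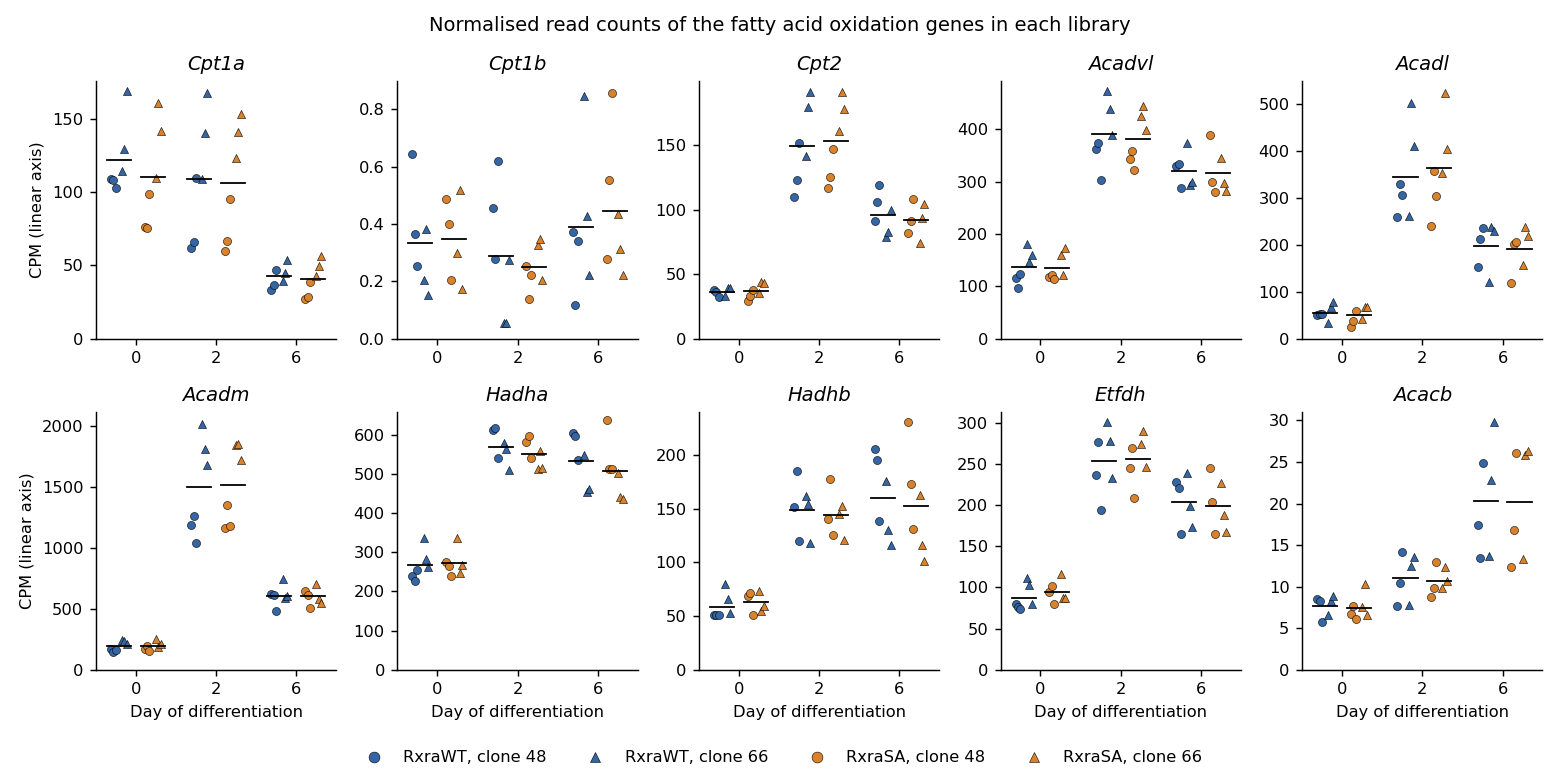
Normalised read counts (CPM, linear axes that start at 0) of the 10 genes in each of the 36 libraries by day of differentiation; colour gives the genotype, shape the clone, and the bar the mean of 6 libraries. Acadm lies between 144 and 249.8 CPM at day 0 and between 1040 and 2020 CPM at day 2, and Cpt1a falls from between 59.7 and 168 CPM at day 2 to between 26.8 and 56.7 CPM at day 6.

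*Cpt1a* encodes the CPT1 form of liver and most other tissues, which is held to set the pace of the pathway. It ranged from 75.6 to 169 CPM at day 0 (median 109), from 59.7 to 168 CPM at day 2 (median 109) and from 26.8 to 56.7 CPM at day 6 (median 41.2). Libraries of days 0 and 2 overlapped widely, whereas every day 6 library lay below every library of the earlier days. The log2 change from day 0 to day 2 was -0.14 (standard error 0.11, adjusted p = 0.26). With library size alone it was -0.40 and passed the threshold, so its call on these days depends on the scaling. From day 2 to day 6 *Cpt1a* fell by 1.34 on the log2 scale (standard error 0.11, adjusted p = 2.4e-12), a 2.53-fold decrease, and from day 0 to day 6 it fell by 1.48 (adjusted p = 1.2e-13), the only decrease among the 10 genes over that interval.

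*Cpt1b*, the muscle and brown fat form of CPT1, was close to the detection limit in these counts. It had 4 to 13 counts per library at day 0, 1 to 10 at day 2 and 2 to 15 at day 6, or medians of 0.332, 0.263 and 0.357 CPM. The ranges of the 3 days overlapped, and the log2 change was -0.32 (standard error 0.33) from day 0 to day 2 and 0.62 (standard error 0.32, adjusted p = 0.089) from day 2 to day 6. The latter passed the threshold with a coefficient for every clone, genotype and day (log2 change 0.69, adjusted p = 0.049). It also passed without replicate 2 of the *Rxra*WT line of clone 48 at day 6 (0.74) and without replicate 3 of that line at day 2 (0.79). With so few counts on so small a part of the gene, changes of this size were not resolved.

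*Cpt2*, which rebuilds acyl-CoA inside the mitochondrion, rose between days 0 and 2. Its level was 29.2 to 43.6 CPM at day 0 (median 36.6), 109 to 191 CPM at day 2 (median 149) and 74.3 to 119 CPM at day 6 (median 92.2). All libraries of days 2 and 6 were above all of day 0, and those of days 2 and 6 overlapped. It rose by 2.04 on the log2 scale to day 2 (4.12-fold, standard error 0.09, adjusted p = 6.9e-20), then fell by 0.67 (adjusted p = 7.8e-08), and remained 2.59-fold above day 0 at day 6.

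The ratios between these genes describe the shift, per kilobase of exonic length. That length joins the exons of all annotated transcripts, so the size of a ratio depends on the annotation. The length cancels in log2 changes between days, but which read pairs were counted also depends on the annotation. *Cpt1a* to *Cpt2* had a median ratio of 0.992 at day 0 (range 0.715 to 1.35), 0.228 at day 2 (0.160 to 0.274) and 0.139 at day 6 (0.0983 to 0.180). The ranges of day 0 and the later days did not overlap, since *Cpt2* rose first and *Cpt1a* fell later. The ratio of *Cpt1b* to *Cpt1a* had medians of 0.00645, 0.00540 and 0.0223 with the whole length of *Cpt1b*, or 0.0347, 0.0290 and 0.120 with its 628 unshared bases, a choice that leaves log2 differences between days as they are. It was compared between days over 6 cultures a day, in each of which the 2 genotypes were averaged. Its log2 value was higher at day 6 than at day 2 by 2.05 and than at day 0 by 1.70 (exact permutation test within clones, two-sided, p = 0.005 for both, the smallest that 400 arrangements allow, adjusted p = 0.015 over 6 comparisons). Between days 0 and 2 the difference was -0.34 (exact permutation p = 0.345, adjusted p = 0.69). Mean log2 ratios on days 0, 2 and 6 were -7.33 ± 0.88, -7.68 ± 1.00 and -5.63 ± 0.67 (SD, n = 6). The change to day 6 stands beside the fall of *Cpt1a*, while that of *Cpt1b* alone did not pass the test.

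The 3 acyl-CoA dehydrogenases, which open each round of oxidation on very long, long and medium chains, rose together to day 2 and declined by day 6. *Acadm*, the medium-chain enzyme, had the largest increase of the 10 members. It spanned 144 to 249.8 CPM at day 0 (median 192), 1040 to 2020 CPM at day 2 (median 1518) and 479 to 746 CPM at day 6 (median 609.7), and no library of any day overlapped with another day. The log2 change was 2.94 to day 2 (7.66-fold, standard error 0.09, adjusted p = 1.7e-25) and it then fell by 1.29 (adjusted p = 9.5e-16).

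*Acadl*, the long-chain enzyme, was at 24.2 to 77.1 CPM at day 0 (median 52.8), 239 to 523 CPM at day 2 (median 342) and 119 to 238 CPM at day 6 (median 209). All 3 days were separate from each other, the day 2 libraries beginning just above the highest of day 6. It rose 6.73-fold to day 2 (log2 change 2.75, standard error 0.16, adjusted p = 5.7e-17) and fell by 0.85 on the log2 scale to day 6 (adjusted p = 9.9e-06). *Acadl* varied more within a day than the other dehydrogenases, and its low values at day 0 (24.2 CPM) and day 6 (119 CPM) both came from replicate 1 of the *Rxra*SA line of clone 48.

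*Acadvl*, the very-long-chain enzyme of the inner membrane, was at 96.5 to 182 CPM at day 0 (median 122.5), 304 to 474 CPM at day 2 (median 382) and 280.1 to 390.1 CPM at day 6 (median 300.4). Days 2 and 6 lay wholly above day 0 and overlapped with each other. Its log2 change to day 2 was 1.51 (2.85-fold, adjusted p = 4.3e-18). It then fell by 0.27 (adjusted p = 0.0038), a change that did not pass the threshold in clone 48 alone (log2 change -0.07, adjusted p = 0.58). *Dvl2*, whose exons overlap those of *Acadvl*, moved the other way, with a log2 change of -1.35 to day 2, and read pairs on the shared bases were not counted for either gene.

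*Hadha* and *Hadhb* encode the subunits of the trifunctional protein, which carries out the remaining steps on long chains. *Hadha* was at 226 to 338 CPM at day 0 (median 263), 509.7 to 616 CPM at day 2 (median 561) and 436 to 637 CPM at day 6 (median 512). *Hadhb* was at 50.6 to 80.1 CPM (median 56.9), 118 to 185 CPM (median 149) and 101.5 to 231 CPM (median 150.5) on the same days. Both were higher in every library of days 2 and 6 than in any of day 0, and days 2 and 6 overlapped.

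The log2 change to day 2 was 1.06 for *Hadha* (2.08-fold, standard error 0.07, adjusted p = 4.3e-15) and 1.26 for *Hadhb* (2.40-fold, standard error 0.12, adjusted p = 1.5e-11). From day 2 to day 6 neither passed the test, with -0.11 for *Hadha* (95% interval -0.26 to 0.04) and 0.09 for *Hadhb* (-0.15 to 0.33). They and *Cpt1b* were the members with no called change over that interval. Per kilobase, *Hadha* was counted 3.41 times as high as *Hadhb* at day 0 (range 2.80 to 3.78), 2.90 times at day 2 (2.52 to 3.41) and 2.49 times at day 6 (2.08 to 3.24). These ranges overlapped, and the ratio was not tested between days. Its size depends on the annotated exonic lengths (8730 bases for *Hadha* and 6595 for *Hadhb*), which join all transcripts of a gene.

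*Etfdh*, which passes electrons from the acyl-CoA dehydrogenases to ubiquinone, was at 74.0 to 116 CPM at day 0 (median 87.3), 195 to 302 CPM at day 2 (median 258) and 164 to 245 CPM at day 6 (median 201). The day 0 libraries were below all others. It rose 2.80-fold to day 2 (log2 change 1.49, standard error 0.09, adjusted p = 6.4e-17) and fell by 0.33 to day 6 (adjusted p = 0.0011). In clone 48 alone that decline was -0.19 and did not pass the threshold (adjusted p = 0.20).

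*Acacb*, whose product makes the inhibitor of CPT1, was the only member that rose in both intervals. It was at 5.70 to 10.3 CPM at day 0 (median 7.59), 7.67 to 14.2 CPM at day 2 (median 10.6) and 12.4 to 29.8 CPM at day 6 (median 20.1). Days 0 and 2 overlapped, as did days 2 and 6, whereas days 0 and 6 did not. The log2 change was 0.52 to day 2 (standard error 0.15, adjusted p = 0.0019) and 0.89 from day 2 to day 6 (adjusted p = 2.0e-06). The earlier change was 0.26 with library size alone (adjusted p = 0.10) and 0.49 in clone 66 alone (adjusted p = 0.058). *Acaca*, the cytosolic carboxylase used for fatty acid synthesis, rose by 0.64 and 0.79 over the same intervals. The ratio of *Acacb* to *Acaca* per kilobase had medians of 0.183, 0.188 and 0.186, with log2 differences between days of -0.14, 0.06 and -0.07 (exact permutation tests, adjusted p between 0.69 and 0.71).

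**Figure D2:**
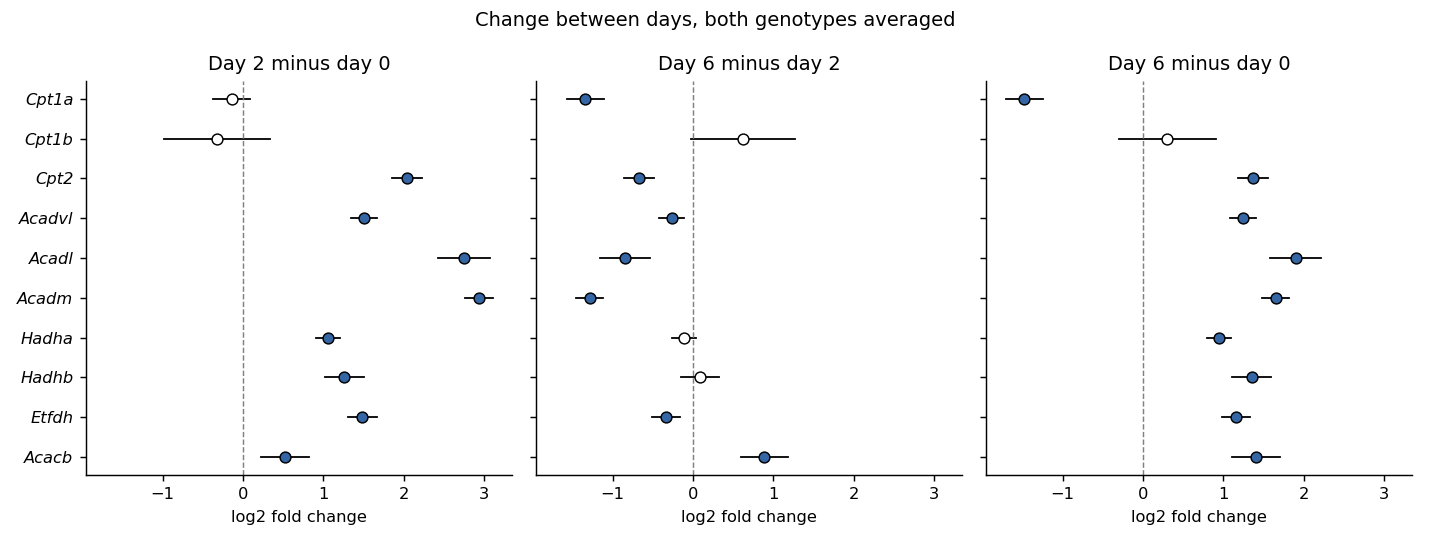
Log2 fold change of each gene between days, averaged over genotypes, with its 95% interval; filled points passed the adjusted threshold and open points did not. To day 2, 8 genes lie right of 0, from 0.52 (Acacb) to 2.94 (Acadm); from day 2 to day 6, Acacb lies right of 0 and 6 genes lie left of it.

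Over all members, 1 was higher and 6 were lower at day 6 than at day 2, against 31.9% and 30.1% of all genes, with a median log2 change of -0.30 against 0.01 for all genes. In 3 members (*Cpt1a*, *Acadl* and *Acadm*) every day 6 library was below every day 2 library, against 7.56% of all genes. Between days 0 and 6, 8 members were higher and 1 lower, against 32.9% and 35.4%, and 8 were separated upwards and 1 downwards, against 12.2% and 11%. The median change of the members was 1.30 and that of all genes -0.03. Except for the calls of *Cpt1a*, *Cpt1b*, *Acadvl*, *Etfdh* and *Acacb* given above, no call on a difference between days changed with the scaling, the low count filter, the test, the samples in the fit, a clone alone or any library left out.

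The order of levels, per kilobase of the exonic bases that no other gene shares, changed with the day. *Acadvl* had the highest median at day 0 (79.8 CPM per kilobase) and day 6 (196), and *Acadm* at day 2 (388). On each day the higher of the pair was above the other in all 12 libraries, although their ranges overlapped. The order of this pair rests on the length used, because with the whole exonic length *Acadm* had the highest median on each day (49.1, 388 and 156, against 45.6, 142 and 112 for *Acadvl*). At day 0 they were followed by *Hadha* (30.4), *Acadl* (26.4), *Cpt2* (15.3), *Cpt1a* (14.3), *Etfdh* (12.1) and *Hadhb* (8.62), and each of these neighbours overlapped in range. *Hadha* was above *Acadl* in 7 and *Cpt2* above *Cpt1a* in 6 of 12 libraries at day 0, so these pairs were not ordered beyond their spread. At day 2, *Acadl* (170) stood apart from *Hadha* (64.8) below it, with no overlap. *Cpt1a* moved to rank 8 at day 2 (14.3) and stayed there at day 6 (5.39), below *Hadhb* (22.8) with no overlap. *Acacb* and *Cpt1b* were counted lowest on each day, with 0.788 and 0.528 at day 0 and 2.09 and 0.568 at day 6. Their ranges overlapped on each day, and at day 0 *Acacb* was above *Cpt1b* in 10 of 12 libraries. Because the values of *Cpt1b* are lower limits, its true place in the order is not known. All these lengths join the exons of every annotated transcript, so the order between genes depends on the annotation.

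The study asked whether preventing the phosphorylation of RXRα alters gene expression. No member passed the threshold between *Rxra*SA and *Rxra*WT on any day. With edgeR, 0 of 10 members passed the adjusted threshold on day 0, 2 or 6, against 0% of all genes, 0 had an unadjusted p-value under 0.05, and DESeq2 called 0 members. Over all genes, unadjusted p-values under 0.05 numbered 139, 162 and 125 on the 3 days, and DESeq2 called 0 genes. The edgeR fit and the intervals below treat same-numbered libraries as unpaired, although they varied together. With a block for each pair of libraries within a day, edgeR gave 704, 692 and 477 such p-values and called 1 gene at day 2. The smallest unadjusted p-values of members in that fit were those of *Cpt1a* (0.053) and *Etfdh* (0.064) at day 0.

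At day 2 *Acadm* averaged 1501 ± 391.6 CPM with the wild-type and 1519 ± 325 CPM with the alanine receptor (SD, n = 6), and *Hadha* at 569.7 ± 41.3 and 551 ± 34.5 CPM. *Cpt1a* was at 122 ± 24.5 and 110.4 ± 34.7 CPM at day 0, and *Acacb* at 20.3 ± 6.59 and 20.1 ± 6.66 CPM at day 6. In each case the genotypes overlapped widely. These values join both clones, so each SD also holds the difference between clones. Within clone 48, *Acadm* at day 2 averaged 1164 CPM with the wild-type and 1232 CPM with the alanine receptor, and within clone 66, 1838 and 1806 CPM. The widest differences among the 9 members other than *Cpt1b* were those of *Acadl* (log2 difference -0.19) and *Cpt1a* (-0.18) at day 0.

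The 95% intervals of these 9 members lay within -0.63 and 0.44 at day 0, within -0.45 and 0.50 at day 2 and within -0.51 and 0.39 at day 6. Decreases of more than 1.55-fold, 1.37-fold and 1.42-fold and increases of more than 1.35-fold, 1.42-fold and 1.31-fold in *Rxra*SA were therefore outside the intervals on these days. For *Cpt1b* the interval reached from -1.14 to 0.86 at day 2, so that a 2-fold decrease lay inside it. Within same-numbered libraries of a clone, *Rxra*SA was lower in 5 of 6 pairs for *Cpt1a* and higher in 5 of 6 for *Etfdh* at day 0, and lower in 5 of 6 for *Acadl*, *Hadha* and *Hadhb* at day 6. For every other member on days 0 and 6, and for every member at day 2, *Rxra*SA was higher in 2 to 4 of 6 pairs. These splits were not tested, and no share over all genes is given for them. The interaction of genotype and time called 0 members for day 2 or day 6 against day 0 (0% of all genes), with 0 unadjusted p-values under 0.05.

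**Figure D3:**
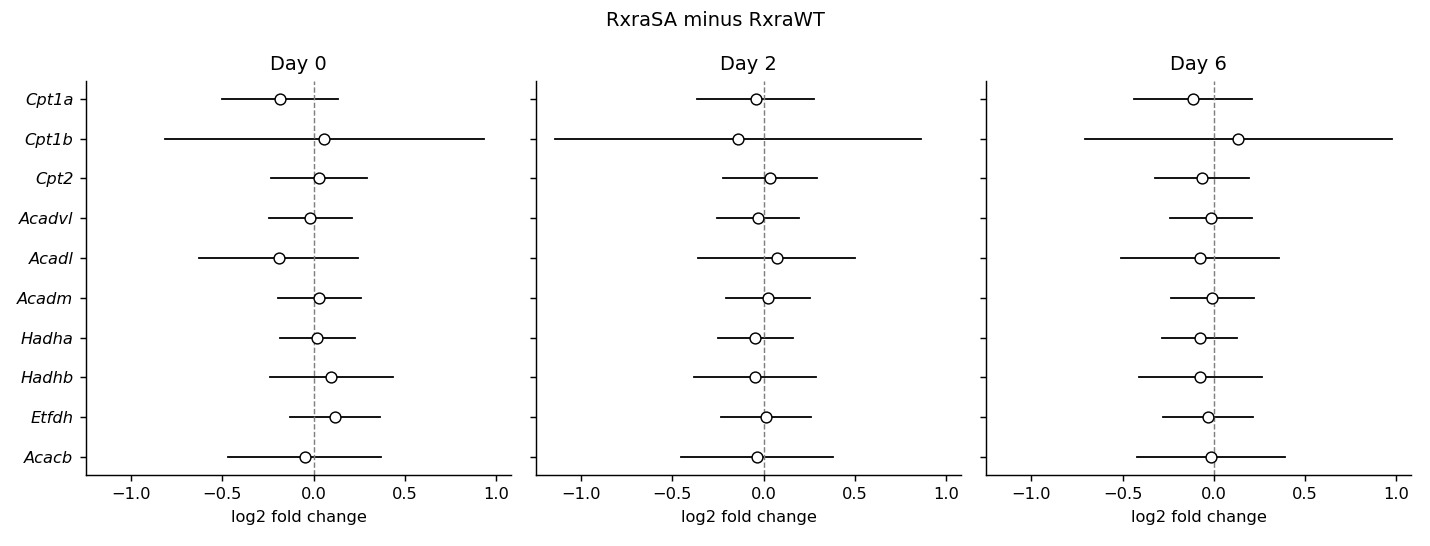
Log2 difference between RxraSA and RxraWT for each gene on days 0, 2 and 6, with its 95% interval; all points are open because none passed the adjusted threshold. The intervals of all 10 genes cross 0, and those of Cpt1b, which had 1 to 15 counts per library, are the widest.

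The 2 clones differed in several members, and library pool cannot be told apart from clone in these values. Same-numbered libraries of both genotypes varied together, so the 6 libraries of a clone and day are not 6 independent values and the p-values across libraries are too small. With both genotypes of a number summed, which leaves 3 values per clone and day, *Acadvl* and *Acadm* passed at day 0 (6.49% of all genes were higher) and *Cpt1a*, *Cpt2* and *Acadm* at day 2 (9.2%). At day 6 that fit called 0 members, against 14.2% of all genes in either direction, and 2 members had an unadjusted p-value under 0.05. Across libraries *Cpt1a* was higher in clone 66 on each day. It was at 75.6 to 109.1 CPM in clone 48 and 109.4 to 168.9 CPM in clone 66 at day 0, at 59.7 to 109.6 and 109.2 to 167.8 CPM at day 2, and at 26.8 to 46.7 and 39.7 to 56.7 CPM at day 6. The clones did not overlap at day 0, met at the edge of their ranges at day 2 and overlapped at day 6. The log2 difference was 0.54 (standard error 0.15, adjusted p = 0.0097), 0.86 (adjusted p = 7.0e-05) and 0.46 (adjusted p = 0.028). The call at day 0 was lost without replicate 2 of the *Rxra*SA line (0.45) or replicate 3 of the *Rxra*WT line (0.43) of clone 66, and that at day 6 was lost for 6 of 36 libraries left out in turn (0.41 to 0.44). With the genotypes summed, only that at day 2 passed (0.87, adjusted p = 0.0066), with adjusted p = 0.12 at day 0 and 0.16 at day 6.

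*Acadm* was at 144 to 194 CPM in clone 48 and 189.6 to 249.8 CPM in clone 66 at day 0, and at 1040 to 1353 and 1682 to 2020 CPM at day 2, when the clones did not overlap. At day 6 they did, with 479 to 649 and 550.5 to 746 CPM. The log2 differences were 0.42 (adjusted p = 0.0017), 0.61 (adjusted p = 1.7e-05) and 0.11 (adjusted p = 0.43). *Acadvl* was higher in clone 66 at day 0 (0.45, adjusted p = 0.0011) and at day 2 (0.32, adjusted p = 0.016), and *Cpt2* at day 2 (0.43, adjusted p = 0.0031). The call of *Acadvl* at day 2 was lost with library size alone (0.26) and without replicate 1 of the *Rxra*WT line of clone 66 at day 2 (0.28), and with the genotypes summed (0.32, adjusted p = 0.099). In all, 3 members were higher in clone 66 at day 0, against 12.6% of all genes, and 4 at day 2, against 14.5%.

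At day 6 the subunits of the trifunctional protein were lower in clone 66 across libraries, and neither passed with the genotypes summed (adjusted p = 0.17 for *Hadha* and 0.20 for *Hadhb*). *Hadha* was at 512 to 637 CPM in clone 48 and 436 to 548 CPM in clone 66 (log2 difference -0.26, adjusted p = 0.026), and *Hadhb* at 131 to 231 and 101.5 to 176 CPM (-0.42, adjusted p = 0.045). The ranges overlapped for both. The call of *Hadha* was lost for 7 and that of *Hadhb* for 18 of the 36 libraries left out in turn, and *Hadha* did not pass without the low count filter either (-0.24, adjusted p = 0.22). With *Cpt1a*, 1 member was higher and 2 were lower in clone 66 at day 6, against 13.4% and 12.8% of all genes.

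**Figure D4:**
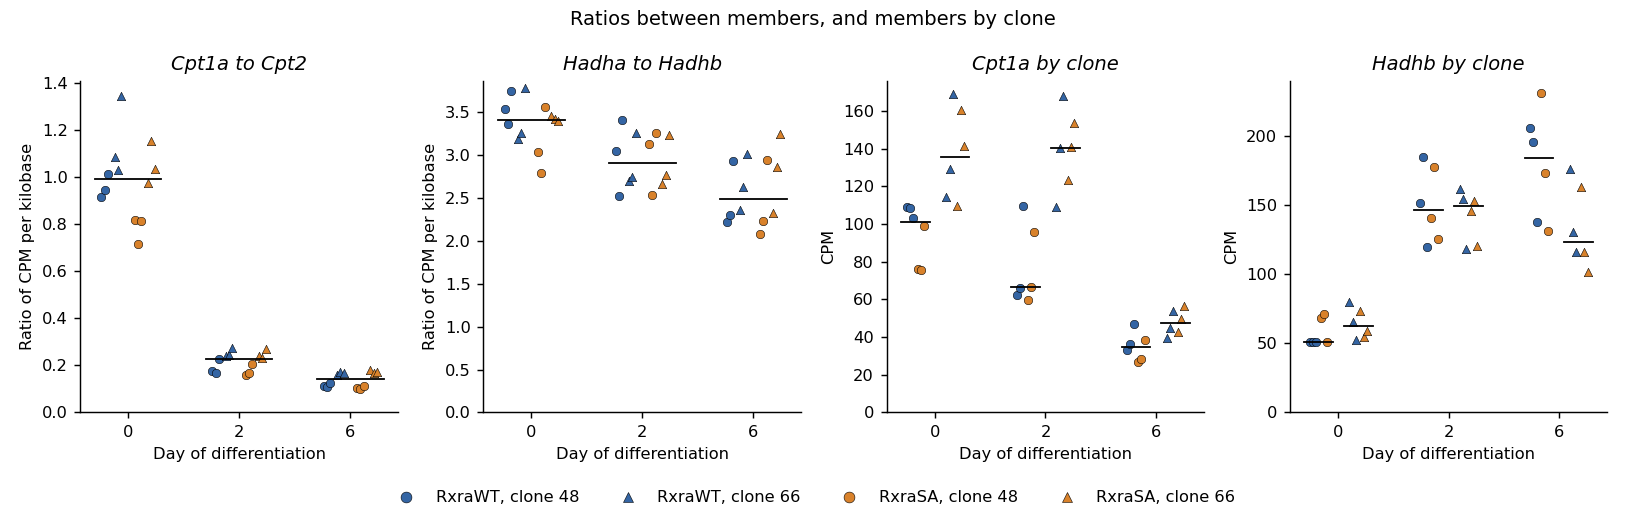
Ratios of CPM per kilobase of Cpt1a to Cpt2 and of Hadha to Hadhb in each library, and CPM of Cpt1a and Hadhb with the clones side by side, by day of differentiation; bars are medians, of 12 libraries for the ratios and 6 for the clones. The Cpt1a to Cpt2 ratio has medians of 0.992, 0.228 and 0.139, and the Cpt1a values of clone 66 lie above most of those of clone 48.

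The change between days also differed between clones for some members. From day 2 to day 6, *Cpt2* (log2 difference in change -0.59, standard error 0.16, adjusted p = 0.017) and *Acadm* (-0.49, standard error 0.14, adjusted p = 0.028) fell further in clone 66, 2 of 10 members against 3.03% of all genes in this direction. In clone 48 alone *Cpt2* fell by 0.35 and *Acadm* by 1.01, and in clone 66 alone they fell by 0.97 and 1.53. From day 0 to day 6, *Hadha* rose less in clone 66 (-0.47, adjusted p = 0.024), 1 of 10 against 1.75% of all genes. Same-numbered libraries varied together, and with each replicate number of a clone as a block the calls grew to 3, with *Cpt1a* (-0.42, adjusted p = 0.021) added from day 2 to day 6, against 6.09% of all genes under the same block. Under that block 4 members rose less in clone 66 from day 0 to day 6, namely *Hadha*, *Hadhb* (-0.59, adjusted p = 0.0047), *Acadvl* (-0.47, adjusted p = 0.014) and *Cpt2* (-0.33, adjusted p = 0.037), against 3.68% of all genes. From day 0 to day 2 it called 2 in place of 0, against 13.4% of all genes with the block and 6.84% without, with *Cpt1a* (0.36, adjusted p = 0.044) and *Hadha* (-0.31, adjusted p = 0.033). Single libraries decided some of these calls: *Cpt2* did not pass without replicate 2 of the *Rxra*SA line (-0.54) or replicate 3 of the *Rxra*WT line (-0.53) of clone 66 at day 2, *Acadm* was lost for 14 and *Hadha* for 6 of the 36 libraries left out in turn, and none of the 3 passed without the low count filter. None passed either with the genotypes of a replicate number summed (*Cpt2* -0.59, adjusted p = 0.22, *Acadm* -0.49, adjusted p = 0.27, *Hadha* -0.48, adjusted p = 0.30), a fit that called 0 members in all 3 interactions, against 1.68%, 1.53% and 0.921% of all genes for days 0 to 2, 2 to 6 and 0 to 6. Unadjusted p-values under 0.05 numbered 0, 2 and 2 among the members.

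Replicate numbers carried part of the spread within a day. At day 6 the 4 libraries of replicate 1 held *Hadhb* at 163 to 231 CPM and those of replicate 3 at 101.5 to 138 CPM, with replicate 2 in between and overlapping both (116 to 195.5 CPM). *Etfdh* showed the same order at day 6, with 227 to 245, 188 to 221 and 164 to 174 CPM and no overlap. *Acadl* and *Acacb* ran the other way: *Acadl* was at 119 to 156.5 CPM in replicate 1 against 202 to 238 and 205.5 to 235 CPM in replicates 2 and 3, and *Acacb* at 12.4 to 17.5 CPM in replicate 1 against 24.9 to 29.8 CPM in replicate 3. These 4 libraries per number combine both clones and both genotypes, and the differences between numbers are given as a description.

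The wider pathway was read from 41 other genes of fatty acid oxidation, of which 36 were tested. Between days 0 and 2, 29 were higher, 4 lower and 3 did not pass the test, with a median log2 change of 0.91, against 35.8% of all genes higher and 37.5% lower. Between days 2 and 6 the counts were 15, 10 and 11, against 31.9% and 30.1%, so they stand near the background. Between days 0 and 6 they were 32, 2 and 2, against 32.9% and 35.4%. The counts by role are set against the same shares. *Acsl6*, a brain acyl-CoA synthetase, *Bdh1* of ketone body metabolism and the receptors *Ppara* and *Esrrg* had 0 to 5 counts per library and were not tested.

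Of 8 tested genes of activation and the carnitine shuttle, 4 were higher and 4 lower at day 2. *Acsl1*, the main acyl-CoA synthetase of adipocytes, went from 29.7 to 50.7 CPM at day 0 to 4210 to 5548 CPM at day 2 (log2 change 6.90, standard error 0.12, adjusted p = 1.3e-31) and then fell by 1.44 to day 6. *Crat*, the carnitine acetyltransferase, rose by 2.58. The decreases were those of *Cpt1c*, the brain form of CPT1 (-2.03), *Acsl5* (-1.21), *Acsl3* (-1.07) and *Acsl4* (-0.27), so that *Cpt1c* and the 3 other synthetases lay lower while *Acsl1* lay higher.

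Of 15 matrix enzymes, 13 were higher at day 2 and all 15 at day 6 against day 0, with medians of 1.14 and 1.05. *Echs1*, the short-chain enoyl-CoA hydratase, had the largest change among them (2.21 and 2.37). *Acadsb* (0.14) and *Acad12* (0.01) were the exceptions at day 2. Between days 2 and 6, 7 of the 15 were higher, among them *Acad10* (1.03), and 5 were lower, among them *Hsd17b10* (-0.75). All genes stood at 31.9% higher and 30.1% lower over that interval, and 3 of the enzymes did not pass the test. *Etfa* and *Etfb*, the subunits of the flavoprotein that feeds the *Etfdh* product, rose by 1.05 and 1.24 to day 2, although 58.2% of the exonic bases of *Etfb* overlapped other genes.

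All 4 genes of malonyl-CoA metabolism and its kinase were higher at days 2 and 6 than at day 0. *Prkaa2*, a catalytic subunit of AMP-activated kinase, which phosphorylates the carboxylases, had the largest increase between days 2 and 6 of the whole list (2.77, standard error 0.13, adjusted p = 4.6e-19), from 2.07 to 4.47 CPM to 14.5 to 29.7 CPM. Of 5 tested regulators all were higher at day 2. The coactivator *Ppargc1b* rose by 3.40 (0.892 to 4.74 CPM at day 0, 13.3 to 34.8 CPM at day 2) and then fell by 0.75. *Pdk4*, which shuts pyruvate out of the citric acid cycle, rose by 2.40 and fell by 1.47, the largest decrease of the list between days 2 and 6.

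**Figure D5:**
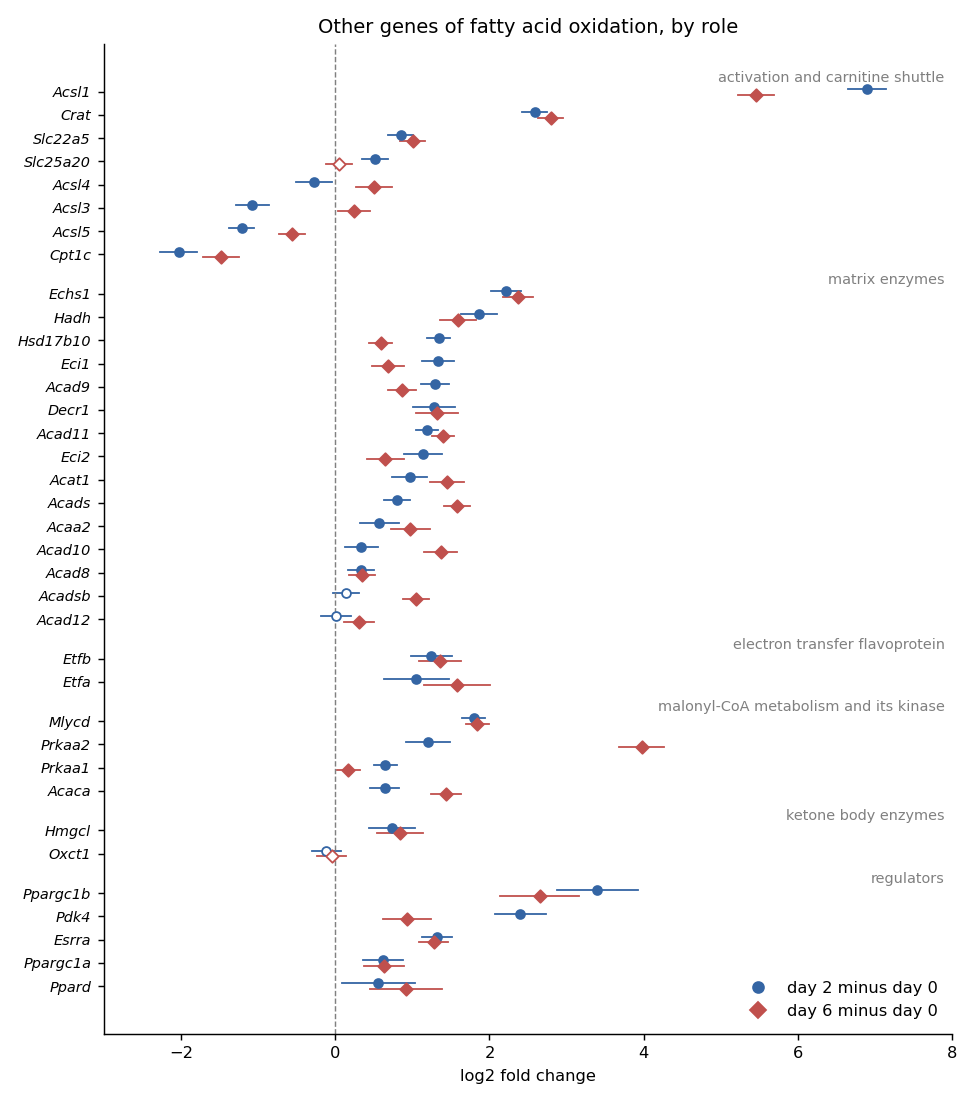
Log2 fold change from day 0 to day 2 (blue circles) and to day 6 (red diamonds) of the 36 tested genes of the wider list by role, with 95% intervals; open symbols did not pass the adjusted threshold. Acsl1 (6.90 and 5.46) lies farthest right, Cpt1c (-2.03 and -1.48) farthest left, and all 15 matrix enzymes are at or right of 0.

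The genes whose log2 CPM followed the mean of the standardised members most closely over the 36 libraries were sought among the 9372 genes whose log2 CPM averaged 3 or more. They were *Mcrip2* (Pearson r = 0.977), *Rnf125* (0.975), *Aifm2* (0.975), *Slc25a39* (0.974), *Apmap* (0.974) and *Flad1* (0.974). The libraries of a day share their day, clone and replicate number, so these values describe a shared time course. *Apmap*, for example, had medians of 56.8, 1099 and 568 CPM on days 0, 2 and 6. Among the members, which are part of the mean, r lay between 0.878 and 0.965 for *Cpt2*, the 3 dehydrogenases, *Hadha*, *Hadhb* and *Etfdh*, and was 0.583 for *Acacb*, -0.04 for *Cpt1b* and -0.29 for *Cpt1a*.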

How the data were processed

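RNA-seq read counts per gene were taken as deposited for 36 libraries. The authors aligned paired reads to GRCm38 with STAR 2.7.0d and counted whole read pairs over exons of GENCODE M21 genes with featureCounts 1.6.2, without strand and without pairs on more than 1 gene, and tested with edgeR 3.24.3. These deposited counts are raw, and the spread at a level of a few counts is dominated by counting error. The fold changes here come from edgeR 4.0.16 (R 4.3.3): filterByExpr, TMM scaling, and the quasi-likelihood test with a coefficient for each genotype and day plus clone. Clone comparisons used 1 coefficient for each clone, genotype and day. Benjamini-Hochberg adjustment ran over all 16723 genes, with a threshold of 0.05. The steps were run on simulated data in which every library was drawn independently, so error rates with libraries that vary together were not checked. Ratios were averaged over the genotypes of each replicate number of a clone. Libraries of the same number, clone and day deviated together from their group means (18 pairs over 9381 genes, correlation 0.176 to 0.930), so fits with the number as a block and, for the clones, with both genotypes of a number summed (chosen after the data were seen) were also run. Other settings were DESeq2 1.42.0, library size alone, no low count filter, other sets of samples and coefficients, each clone alone, and each library left out in turn. All members are named. Of the wider list, the text names the 3 largest changes in each direction and genes chosen after their values were seen, as were *Apmap* and the overlapping neighbours. The members and lists were chosen with earlier results of these data known. 1 untested gene of the wider list is not reported here. Promoter sequences are from RefSeq.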

Additional observations from a re-analysis of the deposited data

Results flagged for a closer look

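In *Rxra*SA libraries at day 0, replicate 1 of clone 66 stood apart for *Hadha* at 337 CPM, against 239 to 275 CPM in the other 5. The same-numbered *Rxra*WT library of clone 66 was as high at day 0 (338 CPM), so the level was shared by the pair. Among the *Rxra*SA libraries the gap of replicate 1 to the next was 0.6252 of the whole range, just past the critical value of Dixon's test for 6 samples. This group was the only one of 60 groups of a gene, genotype and day to pass, and chance alone flags about 1 in 20.

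The change from day 2 to day 6 differed between clones for *Cpt2* (log2 difference -0.59) and *Acadm* (-0.49), and the change from day 0 to day 6 for *Hadha* (-0.47), each by edgeR's test of the interaction across libraries. None of the 3 passed with both genotypes of a replicate number summed. Clone and library pool cannot be told apart in all 3.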

How the results depend on the processing

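No result reversed under any alternative. The number of members called between days was 7 to 8 (day 2 against day 0), 5 to 8 (day 6 against day 2) and 9 (day 6 against day 0), and 0 members were called between genotypes in every setting. With the replicate number as a block, members whose change differed between clones numbered 2 (days 0 to 2), 3 (days 2 to 6) and 4 (days 0 to 6) in place of 0, 2 and 1, and it changed no call between days or genotypes. Clone differences within a day could not be fitted with the block, because the numbers are nested in clones. With both genotypes of a replicate number summed, also chosen after the data were seen, 0 members differed between clones at day 6, and 0 members were called in the interactions over days 2 to 6 and 0 to 6. A block for each pair of libraries within a day, chosen after the data were seen, also called 0 members between genotypes. For days 0 to 6 the clone interaction count was 2 with DESeq2, 2 with library size alone, 0 without the low count filter and 0 with only the compared days, and for days 2 to 6 it was 0 without the filter. With only the compared days, 1 member in place of 3 differed between clones at day 6. Leaving out 1 library gave 0 to 3 members for the clones at day 6, 0 to 2 for the interaction over days 2 to 6 and 0 to 2 over days 0 to 6. Leaving out 1 culture moved the log2 difference in the ratio of *Cpt1b* to *Cpt1a* between 1.72 and 2.26 (day 6 against day 2) and between 1.49 and 1.88 (day 6 against day 0). The adjusted exact permutation p was 0.05 each time, which did not pass the threshold. Depth limits *Cpt1b*, with 1 to 15 counts per library. Where no cause is given for a change of call, the cause was not tested.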
